A study of Mus musculus with 12 samples.

Results

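The 9 complement component genes Cfb, C3, C2, C4b, C1ra, C1qa, C1qb, C1qc and Serping1 were followed through mouse ears injected with IL-17A, IL-36γ or both. The genes were chosen by name, from a list drawn up with earlier results of these same libraries in view. Their differences between groups, and the test calls given for them, are therefore a description and not independent evidence. They are 9 of the 50684 genes in the table of counts, and all 9 were among the 19408 genes that passed the filter on low counts. Female C57BL/6 mice of 8 weeks were treated for 4 days by intradermal injection into the ear pinna with PBS, IL-17A, IL-36γ or IL-17A + IL-36γ, with 1 µg of each cytokine in a volume of 5 µL, and the ears were then taken. All 4 groups shared the strain, the sex, the age and the injection itself, and the labels name no transgene or deletion. Each group held 5 mice, of which 3 drawn at random were sequenced, 1 library per mouse and 12 in all.

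Complement is a cascade of plasma and tissue proteins that marks surfaces for uptake and attracts leukocytes. The classical pathway starts with C1q, a complex of the A, B and C chains, which carries the proteases C1r and C1s that cleave C4 and C2 to form a C3 convertase. The alternative pathway forms its own convertase from C3 and factor B. The liver makes most plasma complement, while macrophages are the main source of C1q and skin fibroblasts, keratinocytes and macrophages also make several components.

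Levels are given as CPM, the share of a gene in the counts of a library after TMM scaling, in counts per 1 M counts, with the SD over 3 libraries. The libraries held 25293468 to 34759293 counts. Of the marker genes of hepatocytes, Serpina1a had no count in any of the 12 libraries and the summed level of the list lay between 0.0909 and 0.507 CPM, whereas the summed keratinocyte markers reached 11900 to 34200 CPM, so the material had the markers of skin. PBS replicate 1 stood apart in its markers of skeletal muscle, which summed to 127 CPM against 1420 and 1710 CPM in the other PBS libraries and 71 to 588 CPM in those of both cytokines, and values without it are given where they matter. Because the RNA came from a part of the ear with its cells mixed, fewer cells of a type and less RNA per cell cannot be told apart.

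Per kb of exon, the order of levels after PBS ran from Serping1 at 61 ± 9.36 CPM per kb, over C3 at 52.4 ± 27.5, C1qa at 44.8 ± 4.07, C1qb at 43.6 ± 5.65, C1qc at 34.4 ± 4.18, C4b at 17.2 ± 5.22 and C1ra at 11.8 ± 1.39, to C2 and Cfb (SD, n = 3). Serping1, C3, C1qa and C1qb did not differ from their neighbors in this order beyond their spread. C1qc exceeded C4b by more than their SDs together, while C4b and C1ra overlapped. Over the exon bases that no other gene on the same strand shares, C2 had 4.43 ± 0.47 and Cfb 3.15 ± 0.34 CPM per kb. After IL-36γ the highest level per kb was that of C1qb at 132 ± 11.8, followed by C3 at 113 ± 21.6, C1qa at 98.7 ± 7.24, Serping1 at 82.1 ± 8.72 and C1qc at 77.3 ± 6.74. C1qb and C3 did not differ beyond their spread in that group, and neither did Serping1 and C1qc.

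**Figure D1:**
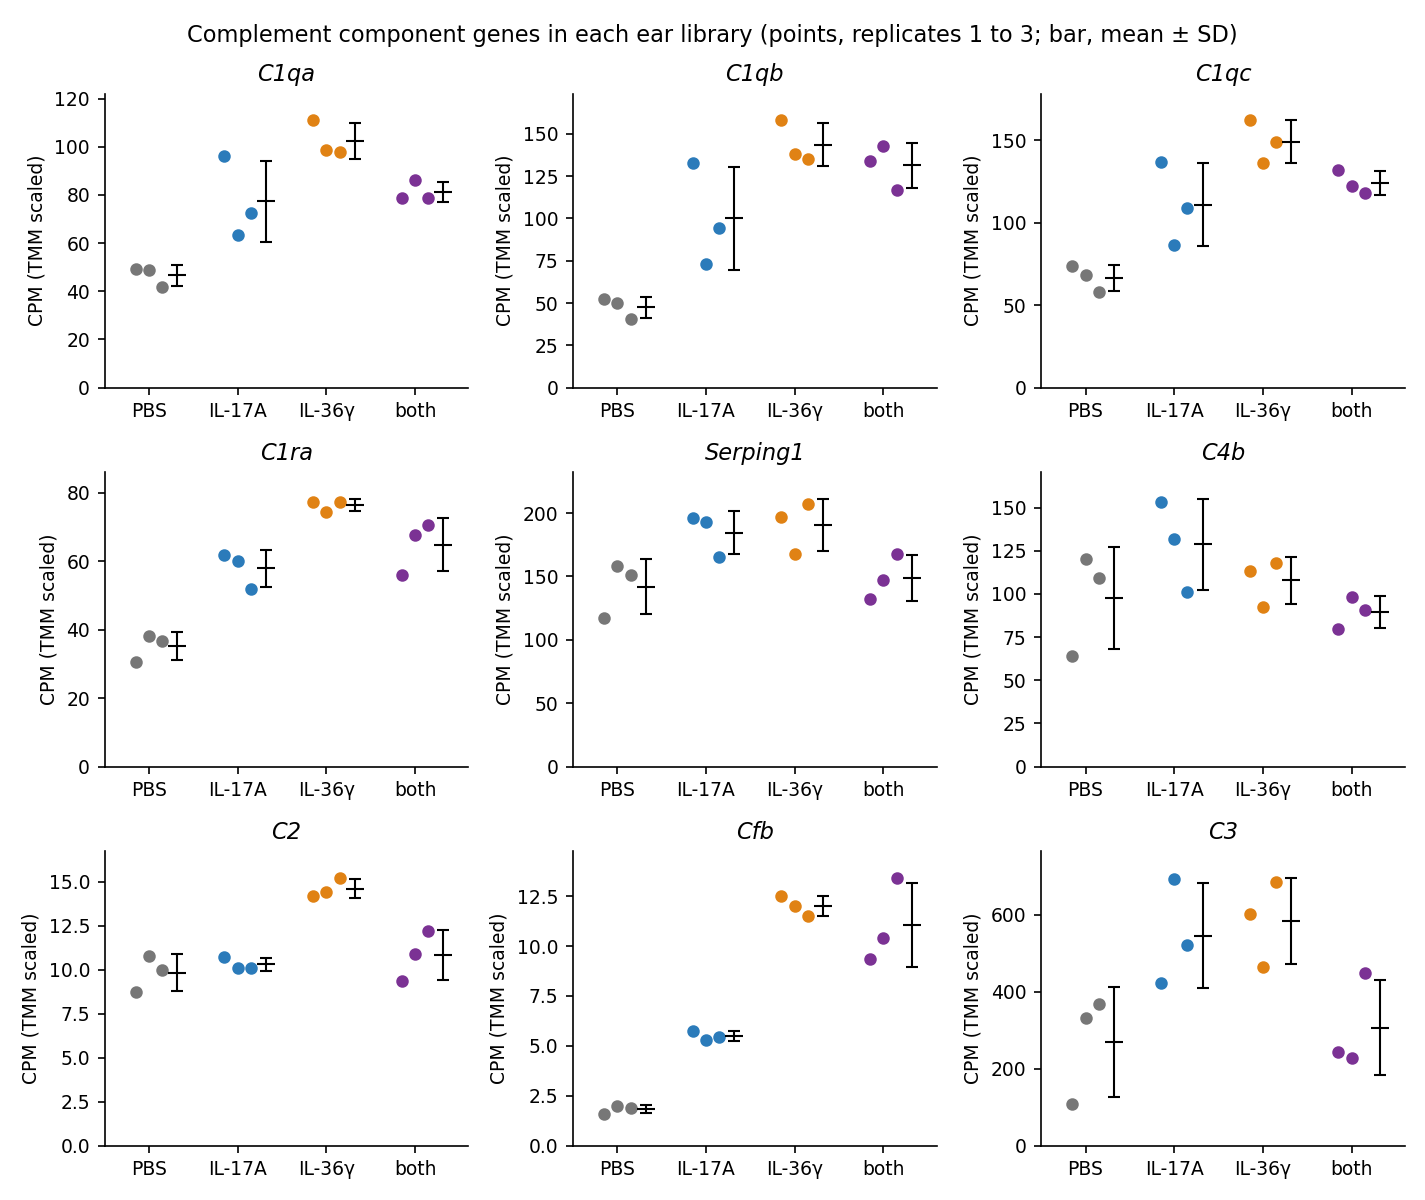
Level of each of the 9 genes in CPM (vertical axes, linear, from 0) in the 4 groups (both, IL-17A + IL-36γ). Points are the 3 libraries of a group in the order of their replicate numbers and bars are mean ± SD. Cfb separates PBS, IL-17A and IL-36γ without overlap, while C3 in PBS replicate 1 lies at 107 CPM, below the other PBS libraries at 333 and 368 CPM.

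The C1q chains stood higher after each injection of a cytokine than after PBS, and the B chain more so than the others. C1qa and C1qc encode the A and C chains of the recognition complex, and C1qb the B chain. The 3 genes lie next to each other on the minus strand of chromosome 4 of GRCm38, C1qb at 136880129-136886187, C1qc at 136889804-136893065 and C1qa at 136895917-136898803, with gaps of 3616 and 2851 bases. None of their 76-base windows, the length of a read, occurred in another annotated gene.

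C1qa was measured at 49.2, 48.9 and 41.7 CPM in the PBS libraries, at 96.2, 63.3 and 72.4 after IL-17A, at 111, 98.8 and 97.7 after IL-36γ and at 78.9, 86.1 and 78.7 after IL-17A + IL-36γ. Every cytokine library lay above every PBS library, and the libraries of both cytokines lay below all of those with IL-36γ alone. C1qb was measured at 52.1, 49.8 and 40.5 CPM after PBS, at 133, 72.9 and 94.4 after IL-17A, at 158, 138 and 135 after IL-36γ and at 134, 143 and 117 after both. Its IL-36γ libraries overlapped with those of both cytokines. C1qc was measured at 73.6, 68.2 and 57.7 CPM after PBS, at 137, 86.5 and 109 after IL-17A, at 162, 136 and 149 after IL-36γ and at 132, 122 and 118 after both. In all 3 genes IL-17A replicate 1 was the highest library of its group.

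Against PBS, the log2 differences of C1qb were 1.08 ± 0.18 for IL-17A, 1.60 ± 0.18 for IL-36γ and, with the cytokines together, 1.47 ± 0.18 (± SE of the fit). Those of C1qa were 0.73 ± 0.13, 1.14 ± 0.13 and 0.80 ± 0.13, and those of C1qc were 0.74 ± 0.14, 1.17 ± 0.15 and 0.90 ± 0.14. The IL-17A value of C1qb fell to 0.79 without IL-17A replicate 1 and to 0.97 without PBS replicate 3.

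The balance between the chains differed between groups in C1qb but hardly in C1qc. The number of C1qb counts per count of C1qa, a ratio within a library that no scaling can change, was 1.06, 1.02 and 0.97 after PBS, 1.39, 1.15 and 1.30 after IL-17A, 1.42, 1.40 and 1.38 after IL-36γ and 1.70, 1.66 and 1.49 after both. All PBS libraries were lowest and all libraries of both cytokines highest, and the single cytokines overlapped between them. In C1qc the ratio to C1qa averaged 1.42 ± 0.06, 1.43 ± 0.07, 1.45 ± 0.07 and 1.53 ± 0.13 in the PBS, IL-17A, IL-36γ and combination groups (SD, n = 3), and its groups overlapped throughout.

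Markers of macrophages were measured beside the C1q chains. The summed level of 8 markers, among them Adgre1, Csf1r, Cd68 and Mrc1, was 563 to 644 CPM after PBS, 797 to 1050 after IL-17A, 1130 to 1290 after IL-36γ and 1010 to 1200 after both. By the rule for calls used throughout, an adjusted p below 0.05 and a log2 difference beyond 1, none of the 8 rose after IL-17A by the quasi-likelihood test of edgeR, although 7 had an unadjusted p below 0.05, 4 of 8 rose after IL-36γ and 4 of 8 after both, in each case Adgre1, Fcgr1, Cd68 and Mrc1. Mertk, a macrophage receptor of the same list, was at 24.1, 28.8 and 28.5 CPM after PBS, at 24.4, 21.0 and 25.3 after IL-36γ and at 22.0, 24.0 and 21.6 after both, and did not follow the sum, to which Mrc1 gave the most in every library. Per 100 counts of the 8 markers C1qa held 7.82 ± 0.55, 8.42 ± 0.64, 8.56 ± 0.23 and 7.50 ± 1.02 counts in the PBS, IL-17A, IL-36γ and combination groups, with all groups overlapping. C1qb held 7.19 to 8.95 counts per 100 marker counts after PBS and 9.14 to 14.2 in the 9 cytokine libraries, without overlap. The part of macrophages in the levels of the C1q genes was not tested.

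**Figure D2:**
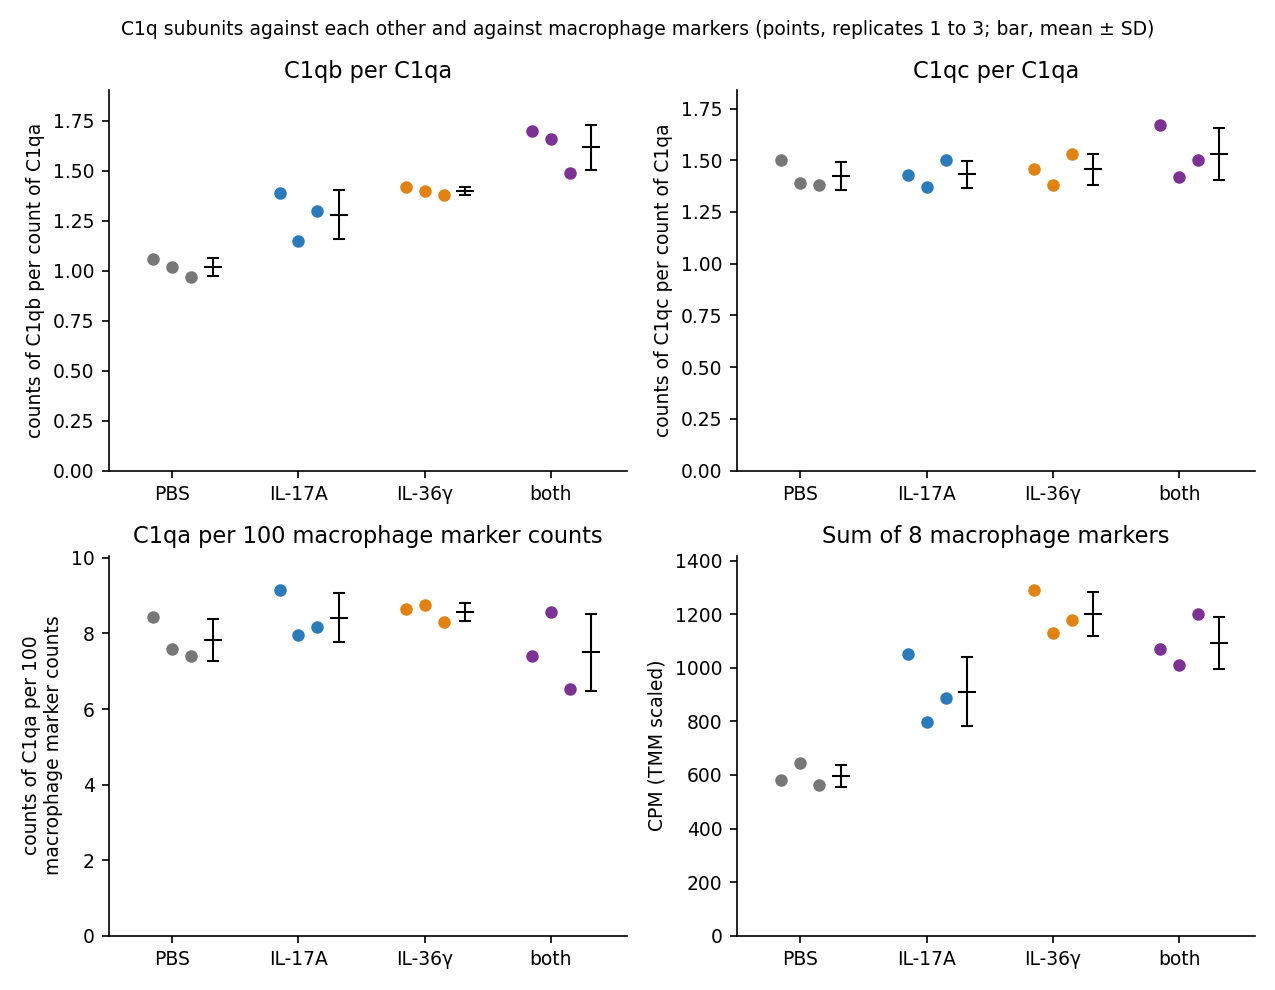
Counts of C1qb and of C1qc per count of C1qa, counts of C1qa per 100 counts of 8 macrophage markers, and the sum of these markers in CPM (linear axes from 0), by group. Points are the 3 libraries of a group and bars are mean ± SD. C1qb per C1qa runs from 0.97 to 1.06 after PBS and from 1.49 to 1.70 after both cytokines, while C1qc per C1qa overlaps between all groups.

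The 250 bases before the RefSeq start (GRCm38.p6) were available for 4 of the 9 members, and those of C1qb (chr4:136886201-136886450, minus strand) and C1qc (chr4:136892915-136893164, minus strand) are shown because these neighboring genes differed in their balance to C1qa. Capitals mark matches to the motifs searched on both strands, which were AP-1 (TGANTCA), C/EBP (TTGCNNAA), the STAT site GAS (TTCNNNGAA), the core of the interferon element ISRE (GAAANNGAA), PU.1 (GAGGAAG) and NF-κB by its name. None of the matches overlapped another.
C1qb: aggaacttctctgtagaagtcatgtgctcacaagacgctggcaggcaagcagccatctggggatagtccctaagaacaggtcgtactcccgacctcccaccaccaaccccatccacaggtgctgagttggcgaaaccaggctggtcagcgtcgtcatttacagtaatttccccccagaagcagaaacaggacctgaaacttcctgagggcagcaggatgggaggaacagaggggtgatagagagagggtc
C1qc: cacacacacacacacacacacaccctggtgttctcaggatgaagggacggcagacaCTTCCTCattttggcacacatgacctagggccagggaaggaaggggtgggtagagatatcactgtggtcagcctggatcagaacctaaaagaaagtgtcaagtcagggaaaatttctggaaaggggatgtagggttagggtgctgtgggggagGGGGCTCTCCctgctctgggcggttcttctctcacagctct
The C1qb window held no match. The C1qc window held a PU.1 match 194 to 188 bases before the RefSeq start, on the opposite strand, and an NF-κB match 41 to 32 bases before it. The annotated C1qc gene begins further upstream, at 136893065, so much of the window, with the NF-κB match, lies inside that gene. Of 32841 windows of the same length, 10.6% held the PU.1 motif, 3.9% the NF-κB motif, 6.75% AP-1, 9.57% C/EBP, 7.02% GAS and 7.13% the ISRE core. These are matches of letters and no binding was measured.

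C1ra, which encodes the protease C1r of the C1 complex, behaved much as C1qa did, with a tight IL-36γ group. It lies on the plus strand of chromosome 6 at 124512405-124523443 of GRCm38. Its level was 30.5, 38.3 and 36.8 CPM after PBS, 61.8, 60.2 and 51.9 after IL-17A, 77.4, 74.5 and 77.5 after IL-36γ and 56.1, 67.8 and 70.7 after both. The IL-36γ libraries lay above all 9 others, and every cytokine library lay above PBS. The log2 differences from PBS were 0.72 ± 0.11, 1.12 ± 0.11 and 0.88 ± 0.11 for IL-17A, IL-36γ and both. Of the 76-base windows of C1ra, 39.8% also occur in C1rb, so its counts may be too low, and C1rb itself stayed between 0.0668 and 0.32 CPM in the group means. Its window before the RefSeq start (chr6:124512371-124512620, plus strand) held none of the 6 motifs, and most of it lies inside the annotated gene.

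Serping1 encodes the C1 inhibitor, the serpin that inactivates C1r and C1s. The gene lies on the minus strand of chromosome 2 at 84765387-84775444. Its levels were 117, 158 and 151 CPM after PBS, 196, 193 and 165 after IL-17A, 197, 168 and 207 after IL-36γ and 132, 147 and 168 after both. The single cytokines lay just above PBS, with 165 against 158 CPM as the nearest libraries for IL-17A, while the combination overlapped with PBS. The log2 differences from PBS were 0.38 ± 0.13, 0.43 ± 0.13 and 0.07 ± 0.13, and the last of these turned to -0.05 without PBS replicate 1 and to -0.08 when the libraries were scaled by their size alone.

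C4b and C2 encode the substrates from which C1s cuts the classical C3 convertase, and both differed less between groups than the C1q genes. C4b lies on chromosome 17 at 34728380-34743882 on the minus strand and shares 23.2% of its 76-base windows with C4a. It was measured at 63.9, 120 and 109 CPM after PBS, 153, 132 and 101 after IL-17A, 113, 92.4 and 118 after IL-36γ and 79.9, 98.4 and 90.8 after both. PBS overlapped with every cytokine group, and the log2 differences of 0.40 ± 0.21, 0.14 ± 0.21 and -0.12 ± 0.21 included PBS replicate 1, the lowest of all libraries. Without that library the IL-36γ value was -0.08, and without PBS replicate 2 that of both cytokines was 0.06.

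C2 was measured at 8.72, 10.8 and 9.97 CPM after PBS, 10.7, 10.1 and 10.1 after IL-17A, 14.2, 14.4 and 15.2 after IL-36γ and 9.36, 10.9 and 12.2 after both. The IL-36γ libraries lay above all others, whereas the remaining cytokine libraries overlapped with PBS. The log2 differences from PBS were 0.07 ± 0.11, 0.57 ± 0.11 and 0.14 ± 0.11 for IL-17A, IL-36γ and both, of which the first was -0.11 and the last -0.00397 under scaling by library size alone.

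Cfb, which encodes factor B, the protease of the alternative convertase, differed most from PBS among the members after each single cytokine and after both. It was measured at 1.61, 1.98 and 1.88 CPM after PBS and at 5.75, 5.29 and 5.43 after IL-17A. IL-36γ gave 12.5, 12.0 and 11.5 CPM, and both cytokines gave 9.36, 10.4 and 13.4 CPM. PBS, IL-17A and IL-36γ did not overlap, whereas the libraries of both cytokines spread around those of IL-36γ alone.

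The group means of Cfb were 3.01 times that of PBS after IL-17A, 6.59 times after IL-36γ and 6.07 times after both, with log2 differences of 1.59 ± 0.15, 2.72 ± 0.15 and 2.60 ± 0.15. IL-36γ exceeded IL-17A by 1.13 ± 0.14, both cytokines exceeded IL-17A by 1.01 ± 0.14 and differed from IL-36γ by -0.12 ± 0.13. These values rest on few counts, 58 to 70 per PBS library and 335 to 395 per IL-36γ library.

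Cfb and C2 are neighbors on the minus strand of chromosome 17, at 34856374-34862518 and 34862604-34898265, 85 bases apart. The annotated gene Gm20547 runs through both on the same strand and shares 79.5% of the exon bases of Cfb and 42.8% of those of C2, while the gene Zbtb12 on the other strand shares 4.16% of C2. Gm20547 itself had 1 count in all 12 libraries, so reads from the shared bases were assigned to neither gene if the counting left out reads that fall in several genes. Over all exon bases Cfb had 0.645 CPM per kb after PBS, and over the bases it shares with no gene on its strand 3.15 CPM per kb. C2 had 2.54 and 4.43 CPM per kb by these measures. The levels of both are therefore uncertain, while comparisons between groups rest on the same bases in each library.

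The number of Cfb counts per 100 counts of C2 was 18.4, 18.4 and 18.8 after PBS, 53.5, 52.1 and 54.0 after IL-17A, 88.0, 83.5 and 75.8 after IL-36γ and 100, 95.0 and 110 after both. The 4 groups did not overlap in this ratio, and the order of PBS, IL-17A, IL-36γ and both held for every library. PBS replicate 1 did not stand apart in it. The last step of the order was not a rise of Cfb, whose means were 12 CPM after IL-36γ and 11.1 CPM after both. C2 was the lower after both, at a mean of 10.8 CPM against 14.6 CPM after IL-36γ.

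**Figure D3:**
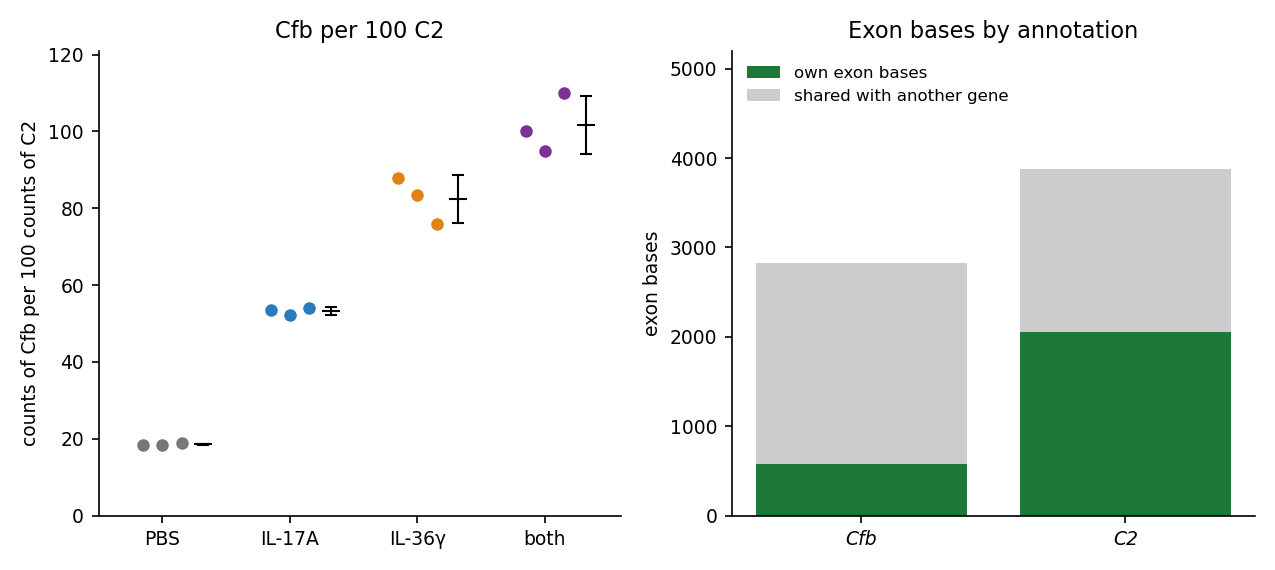
Left, counts of Cfb per 100 counts of C2 in each library (linear axis from 0), with bars for mean ± SD of 3 libraries per group. Right, exon bases of Cfb and C2 that belong to the gene alone and that are shared with another annotated gene. The ratio lies between 18.4 and 18.8 after PBS and between 95.0 and 110 after both cytokines, and 79.5% of the exon bases of Cfb are shared.

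C3, the protein on which all pathways meet, had the highest CPM of the members and the widest spread. It lies at 57203970-57228136 on the minus strand of chromosome 17, and shares no 76-base window with another gene. The 250 bases before its RefSeq start (chr17:57228137-57228386, minus strand) are shown for the same search, with capitals for the only match, a C/EBP motif 45 to 38 bases before the start.
C3: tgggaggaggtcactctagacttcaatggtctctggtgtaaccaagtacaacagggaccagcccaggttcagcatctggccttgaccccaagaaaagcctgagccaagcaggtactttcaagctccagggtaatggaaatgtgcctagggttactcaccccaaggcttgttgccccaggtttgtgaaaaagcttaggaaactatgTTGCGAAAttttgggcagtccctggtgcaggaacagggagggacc
C3 was measured at 107, 333 and 368 CPM after PBS, 422, 694 and 522 after IL-17A, 601, 464 and 685 after IL-36γ and 243, 229 and 448 after both. Both single cytokines lay above PBS in every library, and the combination overlapped with PBS and lay below IL-36γ alone in every library.

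The log2 differences of C3 from PBS were 1.02 ± 0.39, 1.12 ± 0.39 and 0.19 ± 0.39 for IL-17A, IL-36γ and both. Without PBS replicate 1 they were 0.64, 0.74 and -0.19, so the direction of the last turned with that library. It turned also without replicate 3 of IL-17A + IL-36γ, to -0.18. Between both cytokines and IL-36γ alone the log2 difference was -0.93 ± 0.39.

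Cfd, which encodes factor D, the protease that activates factor B and a product of adipocytes, was read beside C3. It was at 13.4, 41.4 and 39.6 CPM after PBS, 70.1, 50.3 and 26.7 after IL-17A, 30.3, 13.2 and 36.6 after IL-36γ and 5.93, 3.04 and 15.1 after both. Its lowest library after PBS was again replicate 1. The number of C3 counts per count of Cfd was 8.02, 8.03 and 9.29 after PBS, 6.02, 13.8 and 19.6 after IL-17A, 19.8, 35.3 and 18.7 after IL-36γ and 40.9, 75.4 and 29.5 after both. The ratio was steady after PBS, replicate 1 included, while IL-36γ and both lay above PBS in every library. The skeletal muscle markers summed to 1030 to 1400 CPM after IL-17A and 498 to 1080 after IL-36γ, and after both to 137, 71 and 588 CPM, where replicate 3 was the highest library in C3 and Cfd as well. The 5 adipocyte markers Adipoq, Plin1, Cidec, Lep and Retn summed to 70.7 to 103 CPM after PBS, 68.3 to 138 after IL-17A, 34.2 to 89.6 after IL-36γ and 19.9 to 42.6 after both, and all 5 fell in both against PBS. Fibroblast markers summed to 8980 to 10900 CPM after PBS and 6620 to 8150 after both, with 1 of 7 called lowered. Per 100 counts of the fibroblast markers C3 held 1.15 to 4.10 counts after PBS, 3.11 to 6.74 after IL-17A, 5.89 to 9.18 after IL-36γ and 2.95 to 5.49 after both, so that IL-36γ lay above PBS on this measure as well. The part of these cells in the level of C3 was not tested.

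**Figure D4:**
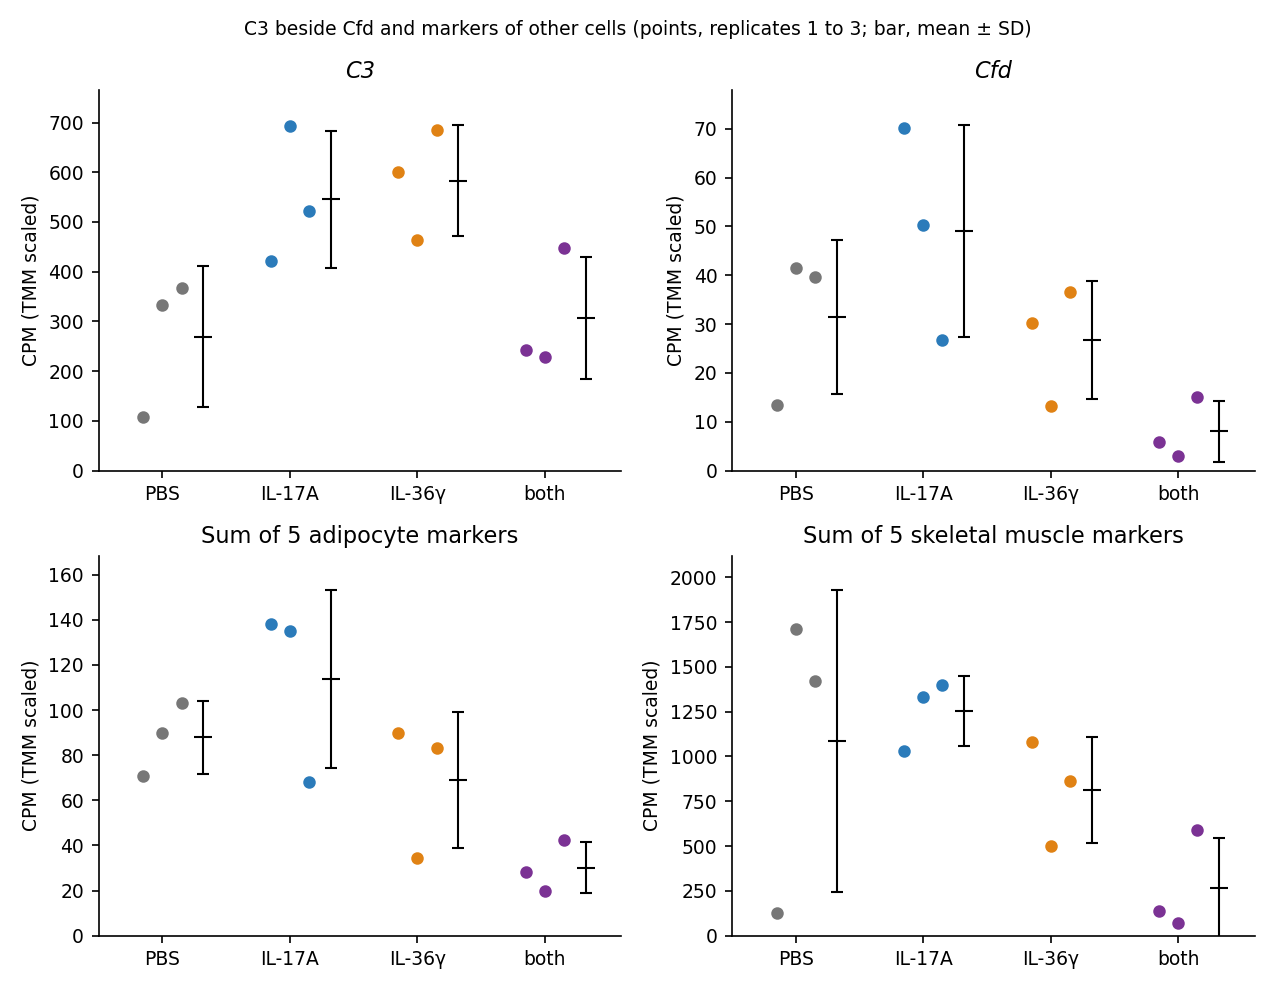
C3, Cfd and the summed markers of adipocytes and of skeletal muscle in CPM (linear axes from 0) in the 4 groups. Points are the 3 libraries of a group and bars are mean ± SD, drawn down to 0 at the lowest. PBS replicate 1 is low in C3 (107 CPM), Cfd (13.4 CPM) and muscle markers (127 CPM), and the adipocyte markers lie between 19.9 and 42.6 CPM after both cytokines.

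Counted over the 9 members, 2 passed the rule for calls as raised after IL-17A (Cfb and C1qb), beside 1.07% of all 19408 genes, and none as lowered, beside 1.03%. After IL-36γ 5 members passed as raised (Cfb, C1ra, C1qa, C1qb and C1qc), beside 5.11%, and none as lowered, beside 1.98%. After both, the 2 members Cfb and C1qb passed as raised, beside 7.35%, and none as lowered, beside 6.06%. Every library of the group lay above every PBS library in 7, 8 and 5 members for IL-17A, IL-36γ and both, beside 19.6%, 22.4% and 27% of all genes. The median log2 difference of the members was 0.73, 1.12 and 0.80, beside 0.0425, -0.015 and -0.0251 for all genes. The members were chosen with these contrasts known, so nothing is read from the counts. Under scaling by library size alone the medians of all genes moved to -0.128, -0.165 and -0.168, and the genes raised and lowered were 129 and 469 in place of 208 and 199 after IL-17A, 822 and 698 in place of 992 and 385 after IL-36γ, and 1204 and 1667 in place of 1426 and 1177 after both.

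Between the cytokine groups, 1 member, Cfb, passed as raised in both against IL-17A, beside 4.46% of all genes, and none as lowered, beside 4.49%. Cfb was also the member that passed as raised in IL-36γ against IL-17A, beside 1.25%, with none lowered, beside 0.366%. This call in both against IL-17A was lost without replicate 3 of IL-17A + IL-36γ. In both against IL-36γ no member passed in edgeR or DESeq2, beside 0% raised and 0.0103% lowered, and 5 had an unadjusted p below 0.05, where 2938 of the 19408 genes did. All 9 members had a log2 difference below 0, as did 9579 of the 19408 genes, with a median of -0.27 for the members. Of these, 5 members, C3, C2, C1ra, C1qa and C1qc, had every library of both cytokines below every library of IL-36γ alone, beside 11.3% of all genes.

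In no member was the mean of both cytokines above that of IL-36γ alone. The interaction sets the log2 difference between both cytokines and IL-36γ against the one between IL-17A and PBS, and a value below 0 means that the first was the smaller. It was below 0 for all 9 members, under every scaling tried, and with TMM scaling for 11371 of the 19408 genes. Its values were -1.95 ± 0.55 for C3, -1.71 ± 0.20 for Cfb, -1.21 ± 0.25 for C1qb, -1.07 ± 0.18 for C1qa, -1.0 ± 0.20 for C1qc and -0.96 ± 0.15 for C1ra. Serping1, C4b and C2 had -0.74 ± 0.18, -0.67 ± 0.30 and -0.50 ± 0.16. The median was -1.0 over the members and -0.07 over all genes, and Cfb, C1ra and C1qa passed as lowered at an adjusted p below 0.05, beside 0.423% of all genes lowered and 0.129% raised. Under scaling by library size alone no member passed, the median of all genes was 0.107, and of all genes 1 was raised and 2 were lowered in place of 25 and 82.

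On the linear scale the shortfall was of similar kind. The gain of both cytokines over PBS was 9.23 CPM in Cfb, against 13.9 CPM for the gains of the single cytokines added together, a difference of -4.63 ± 1.26 CPM (SE from the 4 group variances). For C1qa the difference was -52.1 ± 11.3 CPM, for C1qb -65.1 ± 21.0, for C1qc -69.6 ± 17.6, for C1ra -34.4 ± 5.99, for Serping1 -84.6 ± 22.4 and for C3 -553 ± 149. Among the macrophage markers 7 of 8 also had an interaction below 0, and Adgre1 and Csf1r were among the 3 that passed as lowered. The sign was not particular to them. All 7 fibroblast, 5 keratinocyte, 4 endothelial, 5 adipocyte, 5 skeletal muscle and 4 monocyte markers lay below 0 as well. So did 6 of 7 neutrophil markers and 8 of 13 interferon genes, and none of these lists had a gene that passed.

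**Figure D5:**
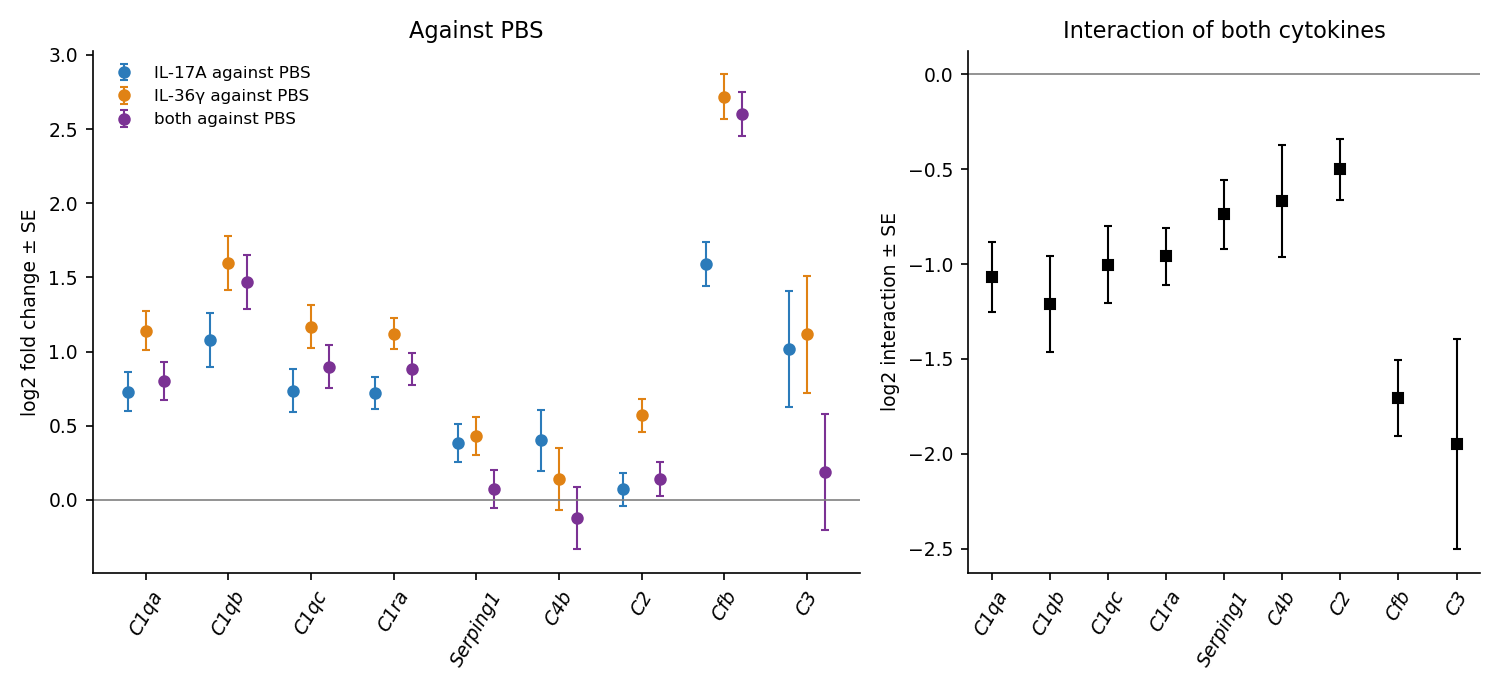
Left, log2 difference from PBS of each member after IL-17A, IL-36γ and both (points, bars ± SE of the edgeR fit of 12 libraries). Right, the log2 interaction of the cytokines with its SE. All interactions lie below 0, from -0.50 in C2 to -1.95 in C3, and Cfb has the largest differences from PBS.

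Genes with the profile most like that of a member over the 12 libraries were sought among 12273 genes with a mean of at least 5 CPM, by the root mean square difference of log2 CPM centered per gene. Nearest to Cfb were Gvin3 at 0.253, then Clec4a3, Gm5431, Ccr2 and Ccl8 at 0.293, where the Cfb profile itself had a root mean square of 1.08. C1qa was followed by P2ry12 at 0.107, Tlr7, Gpr34, Grn and Rilpl2 at 0.16. For C3 they were Clca3a2 at 0.332, Adssl1, Tmeff2, C1s1 and Fcgbp at 0.43, and for Serping1 Cnp at 0.0986, Dpysl2, Pid1, Ackr1 and Pdgfc at 0.109. The profiles of C1qa, C3 and Serping1 themselves had a root mean square of 0.44, 0.741 and 0.239. The distances therefore do not rank the matches of one member against those of another.

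Beside the members, 13 genes of the response to interferon and 10 genes of the acute phase were counted. Of the interferon genes 0, 9 and 12 of 13 rose after IL-17A, IL-36γ and both by edgeR, with 3 at an unadjusted p below 0.05 after IL-17A, and their summed level went from 131 to 174 CPM after PBS to 178 to 223, 373 to 488 and 355 to 702 CPM. Of the 8 acute phase genes tested 4, 6 and 7 rose. The part of either response in the levels of the members was not tested.

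Of 47 other complement genes 31 passed the filter and were tested with p-values adjusted over all genes. This list too was drawn up with earlier results of these libraries known, so its calls are not independent evidence. After IL-17A 3 of 31 rose and none fell, beside 1.07% and 1.03% of all genes. After IL-36γ 4 rose and 1 fell, beside 5.11% and 1.98%, and after both 7 rose and 5 fell, beside 7.35% and 6.06%. The median log2 differences were 0.14, -0.08 and -0.13, beside 0.0425, -0.015 and -0.0251 for all genes. None of the 31 passed in both against IL-36γ or in the interaction by the quasi-likelihood test of edgeR. In these, 11 and 14 of 31 had an unadjusted p below 0.05, where 2938 and 4373 of all 19408 genes did. By the likelihood ratio test of DESeq2 0 and 8 passed.

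Among the receptors C3ar1, which binds the C3a fragment and is found on myeloid cells, was at 19.3 to 25.8 CPM after PBS, 36.3 to 65.0 after IL-17A, 76.5 to 96.6 after IL-36γ and 85.4 to 93.7 after both. It rose by a log2 of 1.06 ± 0.19 (adjusted p = 0.0151), 1.93 ± 0.19 (adjusted p = 6.41e-05) and 1.98 ± 0.19 (adjusted p = 2.45e-05), the first lost without PBS replicate 3 or IL-17A replicate 1 (0.94 and 0.73). The C5a receptors C5ar1 and C5ar2 rose after both, by 1.01 ± 0.25 (adjusted p = 0.00739) and 1.28 ± 0.30 (adjusted p = 0.00468), of which both were lost without replicate 1 of IL-17A + IL-36γ (0.70 and 0.89). C5ar1 was also lost without PBS replicate 1 or 3 (0.89 and 0.99). After IL-17A and IL-36γ alone C5ar1 had 0.65 ± 0.26 and 0.20 ± 0.26. The chains of complement receptor 3 rose, Itgam by 2.56 ± 0.25 after IL-36γ (adjusted p = 5.59e-05) and 2.59 ± 0.25 after both, and Itgb2 by 1.41 ± 0.14 (adjusted p = 6.31e-05) and 1.56 ± 0.14. Itgam shares 68.7% of its exon bases with Gm49368, and its rise by 1.1 ± 0.25 after IL-17A (adjusted p = 0.0248) was lost without PBS replicate 1, PBS replicate 3 or IL-17A replicate 1 (0.96, 0.95 and 0.89). It also rose by 1.49 in both and by 1.46 in IL-36γ against IL-17A.

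In the classical and lectin pathways C1s2, a paralog of C1s1 with 7 to 18 counts per PBS library, rose by 1.19 ± 0.31 after IL-17A (adjusted p = 0.0355, lost in 5 of 6 fits that left out a library, with adjusted p up to 0.11), 1.96 ± 0.29 after IL-36γ (adjusted p = 0.000714) and 1.996 ± 0.29 after both (adjusted p = 0.000255). C1s1, which encodes the partner of C1r, had log2 differences of 0.75 ± 0.17, 0.90 ± 0.17 and 0.47 ± 0.17 and was not called. The collectin gene Colec11 fell by 1.07 after both (adjusted p = 0.00867), lost without PBS replicate 1 or replicate 1 or 2 of the combination (-0.99, -0.98 and -0.99). The ficolin gene Fcna fell by 1.21 in both against IL-17A (adjusted p = 0.000622).

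For the partners of Cfb, properdin (Cfp), which stabilizes the alternative convertase, rose after both by 1.15 ± 0.15 (adjusted p = 0.000152), after 0.65 ± 0.15 and 0.96 ± 0.15 for the single cytokines. Cfd fell by 1.96 after both (adjusted p = 0.0196) with overlapping libraries, a call lost without PBS replicate 2 or 3 or replicate 1 or 2 of the combination (adjusted p from 0.0619 to 0.0741), and by 2.60 against IL-17A. Of the regulators, Cd55, the decay accelerating factor, fell by 1.03 ± 0.20 after both (adjusted p = 0.00177), lost without the same 4 libraries, in which the log2 difference went to between -0.94 and -0.92. Cfi, factor I, had at most 1 count in a library.

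The terminal pathway genes were scarce. Hc, which encodes C5, had 20 to 95 counts per library and log2 differences of 0.43 ± 0.41, 0.93 ± 0.40 and 0.23 ± 0.42. C7 had 12, 27 and 22 counts after PBS, 4, 3 and 2 after IL-36γ and 1, 3 and 4 after both, and was called lowered in the last 2 groups (adjusted p = 0.00913 and 0.00558). C6 had 2, 17 and 12 counts after PBS and 0, 1 and 2 after both, and its call (adjusted p = 0.0455) was lost in 5 of 6 fits without a library, with adjusted p up to 0.151, and it was also called lowered in both against IL-17A (adjusted p = 0.0264), which had 6, 22 and 7 counts, a call lost in 3 of 6 such fits. Both calls of C7 were kept in 6 of 6 such fits, at -2.82 to -2.29 after IL-36γ and -2.88 to -2.22 after both. With so few counts the size of the fold is not reliable for C6 or C7.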

How the data were processed

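RNA of mouse ear skin was measured in 12 libraries, 3 per group, assigned from the sample labels. The authors made stranded total RNA libraries, read them as pairs of 76 bases, aligned them to mm10 with STAR 2.5.2b and counted reads per Ensembl gene with featureCounts of Subread 1.5.1 (names and versions as in the submitters' processing notes). These raw counts are what was deposited. The strand setting, the handling of reads in several genes and the annotation release are not given in the sources used here. Reads in exon bases shared with another gene may be lost, which would lower Cfb, C2 and Itgam. Reads from sequence that also occurs in C1rb or C4a may be lost as well, which would lower C1ra and C4b. The authors' tables of 5 comparisons hold log2 fold changes and p-values from DESeq2 1.30.0, and only their gene symbols were used.

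Counts were analyzed in R 4.3.3 with edgeR 4.0.16: filterByExpr with a minimum count of 10, TMM scaling and the quasi-likelihood test on 4 group means in 1 fit of 12 libraries, with genes called at a Benjamini-Hochberg adjusted p below 0.05 and a log2 difference beyond 1 in either direction (interaction: adjusted p alone). By the study's methods the libraries came from separate mice, so p-values measure the spread between mice. Log2 CPM used a prior count of 2. Positions are from GENCODE vM21 (GRCm38). Alternatives were DESeq2 1.42.0 (likelihood ratio test), other scalings and filters, only the groups compared, no fold threshold, the replicate number as a block and each library left out. The fit was tested on simulated data. No pair of libraries within a group was a copy, with a chi-square per gene of 7.03 to 63.3.

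The members and all lists were chosen with earlier results of these data known. Named genes are the 9 members, of 47 other complement genes those called in any of 7 comparisons plus C3ar1, C5ar1, Cfi, Cfd, Cfp, Hc, C1s1 and Cd55, genes that share bases with a member, and the 5 nearest profiles of Cfb, C3, C1qa and Serping1. Some items are not reported here. Marker lists cover macrophages, monocytes, neutrophils, fibroblasts, keratinocytes, endothelium, adipocytes, skeletal muscle and hepatocytes.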

Additional observations from a re-analysis of the deposited data

Results flagged for a closer look

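In the interaction of the cytokines 3 members had an adjusted p below 0.05 in edgeR, a number that ran from 0 to 8 over the alternatives. These contrasts were known when the members were chosen, so the values are a description and no difference is shown by them. In Cfb IL-17A changed the log2 level by 1.59 ± 0.15 against PBS and by -0.12 ± 0.13 on top of IL-36γ, an interaction of -1.71. In C1qa the values were 0.73 ± 0.13 and -0.34 ± 0.13, an interaction of -1.07, and in C1ra they were 0.72 ± 0.11 and -0.24 ± 0.11, an interaction of -0.96. The other 6 members had interactions of the same sign that did not pass.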

How the results depend on the processing

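The log2 values of the members against PBS and in the interaction were recomputed 513 times, of which 464 kept their side of the threshold, 28 lost it and 21 gained it. None that had passed changed sign. Of 204 recomputed counts of calls 160 stayed within 1.5 times the count given. In IL-17A against PBS the 2 members called became 1 with scaling by library size only and 1 in a fit of only the groups compared, 5 without a fold threshold, and 1 to 2 with a library left out, and the 3 other complement genes became 1, 0, 7 and 0 to 3. In the fit of these 2 groups alone 9 of all genes were called. In IL-36γ against PBS the 5 members became 3 with library size only, and the 5 other genes became 3 with at least 10 counts in every library, 9 by DESeq2, 12 without a fold threshold and 5 to 9 with a library left out. In both against PBS the 2 members became 5 without a fold threshold, and the 12 other genes became 21, and 7 to 12 with a library left out. In both against IL-17A the 1 member became 0 to 1 with a library left out, and the 4 other genes became 7 by DESeq2, 14 without a fold threshold and 4 to 9 with a library left out. In IL-36γ against IL-17A the 1 member became 3 and the 1 other gene 6 without a fold threshold, the latter 1 to 3 with a library left out.

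The calls of the interaction depended most on the settings. The 3 members called became 0 with library size only, 7 without a filter, 8 by DESeq2 and 0 to 7 with a library left out, with 0 without replicate 1 of IL-36γ or replicate 2 of IL-17A + IL-36γ and 7 without PBS replicate 1. The other complement genes went from 0 to 4 without a filter, 8 by DESeq2 and 0 to 4 with a library left out. Of all genes 25 rose and 82 fell in it, which became 1 and 2 with library size only and 1056 and 1434 by DESeq2. C1qa moved to an adjusted p of 0.0501 with the size factors of DESeq2. The cause of these shifts was not tested. The replicate numbers pair nothing by the labels, and deviations of same-numbered libraries correlated between -0.20 and 0.35, with 8 of 12 libraries correlating best with their own number. With the replicate number as a block 7 members and 2 other complement genes were called in the interaction, 391 genes rose and 492 fell, and C3 passed after IL-17A at 1.12 and after IL-36γ at 1.24.

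With 3 libraries per group, depth limits C6, C7, C1s2 and Cfi, which had few counts, and the spread of PBS replicate 1 limits C3 and C4b.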

Other observations

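Beside the complement genes, markers of monocytes and neutrophils changed in every comparison with PBS. The 4 monocyte markers Ly6c2, Ccr2, Plac8 and Chil3 summed to 39.7 to 70.9 CPM after PBS, 111 to 150 after IL-17A, 224 to 319 after IL-36γ and 258 to 329 after both, and 2, 4 and 4 of 4 rose. The 7 neutrophil markers summed to 13.1 to 88.8 CPM after PBS, 378 to 867 after IL-17A, 2280 to 4830 after IL-36γ and 7600 to 10000 after both, and 5, 7 and 7 of 7 rose. S100a8 and S100a9, which keratinocytes and macrophages can also express, made up most of this sum, with 3140 to 3770 and 4340 to 6080 CPM after both. Ly6g, the marker most specific to neutrophils, was at 0 in all PBS libraries and at 0.549 to 0.858 CPM after both, and Csf3r went from 2.91 to 6.06 CPM after PBS to 52.9 to 102 CPM after both. Endothelial markers lay between 119 and 161 CPM in all libraries, with 0 of 4 called in any comparison with PBS by edgeR, where 2, 0 and 2 had an unadjusted p below 0.05 after IL-17A, IL-36γ and both. The ratio of C1ra to C1s1 counts was 0.556 to 0.56 in the IL-17A libraries, 0.64 to 0.681 after IL-36γ and 0.682 to 0.80 after both, while PBS replicate 1 had 0.682 against 0.524 and 0.537 in the other PBS libraries. Counts of C3ar1 per 100 counts of macrophage markers were 3.42 to 4.01 after PBS, 4.55 to 6.19 after IL-17A, 6.49 to 8.55 after IL-36γ and 7.09 to 9.32 after both.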
